A study of Sus scrofa with 12 samples.

Results

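The integrin subunits and tetraspanins of the pig were followed through endothelial induction of porcine induced pluripotent stem (iPS) cells. The members were chosen by gene family and not by their values, except CD9, which was included because it had been seen to be high at day 4. They are the genes whose pig symbol begins with ITGA or ITGB, without the ITGB1BP and ITGBL genes, those whose symbol begins with TSPAN, and CD9, CD81, CD63, CD151, CD82, CD37 and CD53. This gave 48 of the 19681 genes measured, of which 22 are integrins (14 alpha and 8 beta subunits) and 26 are tetraspanins. Only 13998 of the genes carried a symbol, so a member without one was not found, and ITGA2B, ITGA7, ITGAD, ITGAX, TSPAN8, TSPAN16 and TSPAN31 were not among those found and are not analysed here.

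The RNA of 12 libraries was measured as FPKM (sequenced fragments divided by transcript length and by library size), so that values of different genes can be set side by side. AOC is a porcine endothelial cell line. IEC2, IEC4 and IEC12 were taken at days 2, 4 and 12 of an induction of porcine iPS cells toward endothelium, run in the study as CHIR99021 (an activator of WNT signaling) up to day 2, BMP4, FGF2 and VEGF up to day 4, and an endothelial growth medium with VEGF from then on. Each group has 3 replicates, A, B and C, the IEC12 libraries are of unsorted cells, and AOC is a single line that was not derived from these iPS cells, so origin, culture and stage cannot be told apart in any AOC comparison. The study names the repeats biological without saying what was repeated, so p-values measure the spread between these samples only.

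The endothelial label was checked against 12 marker genes, of which 10 were found. Their summed level was 296 to 421 FPKM in AOC, with 9 of the 10 at 1 FPKM or more in every AOC library, but 0.425 to 0.578 FPKM in IEC12, where all 10 were under 1 FPKM in every library. PECAM1, which encodes CD31, lay between 0.0197 and 0.105 FPKM in IEC12, and CDH5, the cadherin of endothelial junctions, was listed at 0 in all IEC libraries and at 103 to 137 FPKM in AOC. The IEC12 libraries are therefore described by their day and not as endothelial cells. Epithelial markers (9 of 10 found) moved strongly with the stage, with sums of 119 to 153 FPKM in IEC2, 539, 698 and 1519 FPKM in IEC4 A, B and C, 42.1 to 87.3 FPKM in IEC12 and 2.21 to 4.05 FPKM in AOC. CLDN6 made up most of the sum in IEC2 (86.9 to 130 FPKM), IEC12 (37.1 to 70.5 FPKM) and AOC, and KRT8 and CLDN6 most of it in IEC4. KRT18, GRHL2, CLDN4, CDH1 and OVOL1 were under 1 FPKM in every IEC2 library, and ESRP1 overlapped between IEC2 and IEC4. Neural markers (6 of 8 found) summed to 371 to 397 FPKM in IEC12, nearly all from STMN2, against at most 16.4 FPKM in the other groups. In bulk RNA, fewer cells of a type and less RNA in each cell cannot be told apart.

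Integrins are cell-surface receptors made of an alpha and a beta chain. They bind matrix proteins such as fibronectin, laminin and collagen, or counter-receptors on other cells, and couple them through talin and kindlin to the actin cytoskeleton. Tetraspanins are small proteins that cross the membrane several times and gather integrins, proteases and receptors into membrane microdomains. CD9, CD81 and CD151 are known as partners of integrins or immunoglobulin-family proteins, CD63 cycles through late endosomes, and the TspanC8 group carries the protease ADAM10 to the cell surface. In endothelium, integrins are known for anchoring the vessel wall, and CD63 is a membrane protein of its storage granules.

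Of the 48 members, 31 reached 1 FPKM in at least 3 of the 12 libraries, 17 did so in all 12 libraries and 13 stayed under 1 FPKM in all of them. The 17 were 4 integrins and 13 tetraspanins, and the 13 were 7 integrins and 6 tetraspanins. The low genes included leukocyte members, with CD37 and CD53 at or under 0.21 FPKM and ITGAM and ITGB2 at or under 0.708 FPKM in every library. CD82, a tetraspanin of many epithelia, also stayed low, at 0.433, 0.324 and 0.165 FPKM in IEC2, 0.0612, 0.303 and 0.482 in IEC4, 0.0188, 0.0760 and 0.0843 in IEC12, and 0, 0.0274 and 0 in AOC. The remaining 4 (ITGA3, ITGB3, TSPAN11 and TSPAN32) passed 1 FPKM in 1 or 2 libraries and entered no test. Among the 31, the highest group mean was in AOC for 13 genes, in IEC2 for 7, in IEC4 for 6 and in IEC12 for 5, and none of the 13 integrins of the 31 was highest in IEC12. ITGB5, ITGB8 and TSPAN9 reached 1 FPKM in AOC alone, ITGB6 and ITGAL in IEC4 alone and ITGA8 in IEC2 alone. Their highest group was thus set by the filter. The same tally over all genes was not made, so these counts are a description.

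**Figure D1:**
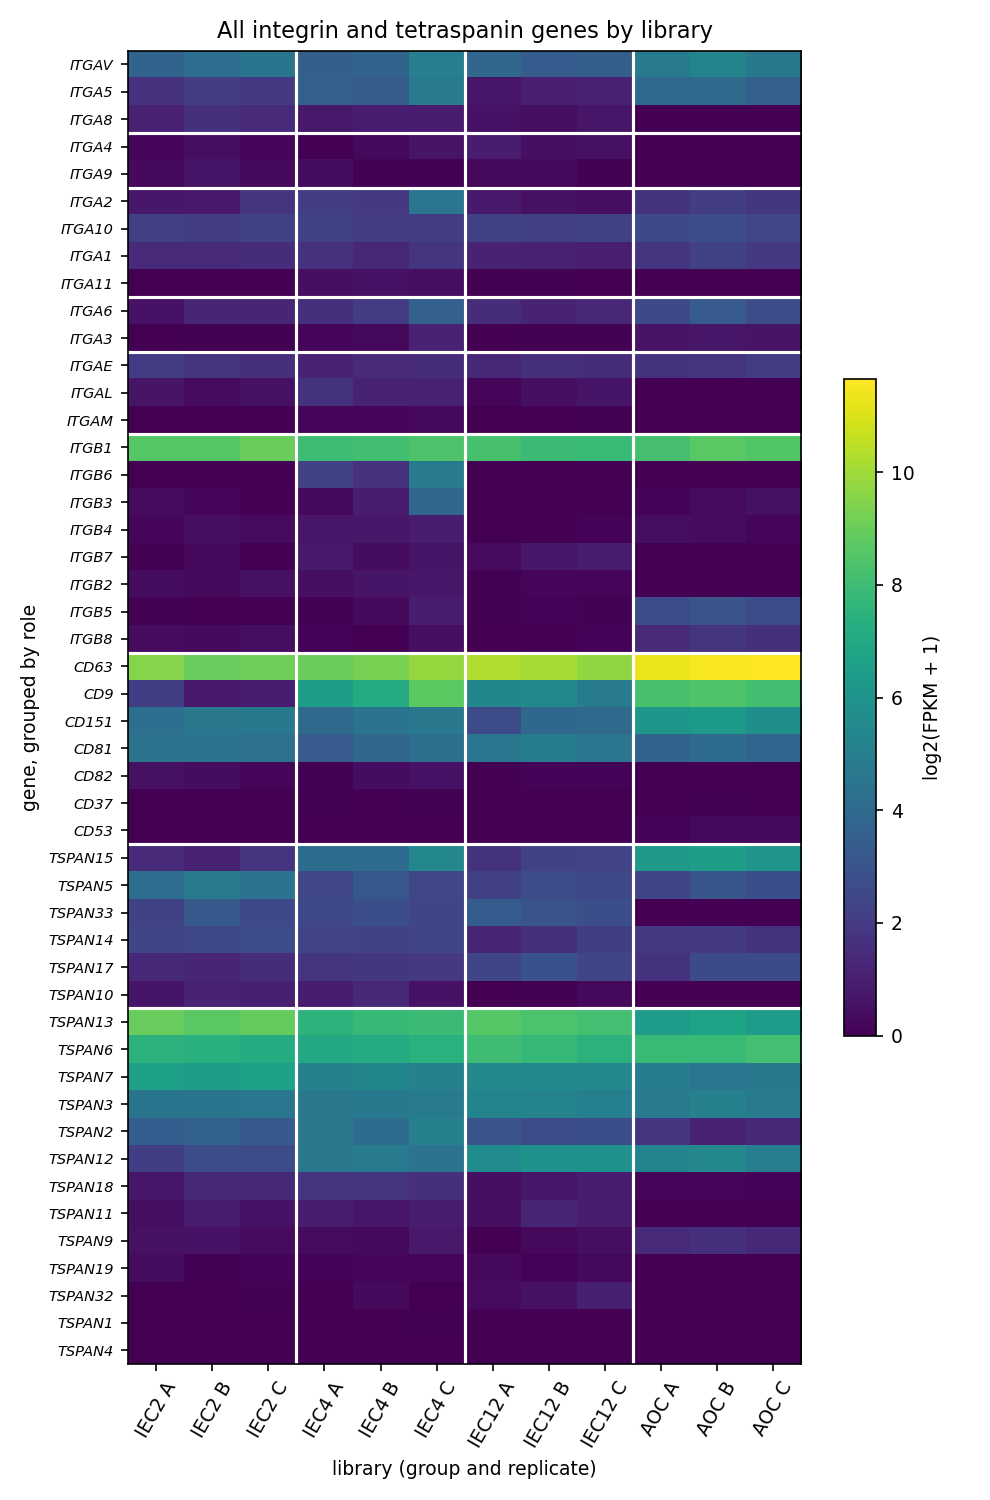
Level of each of the 48 genes in each library as log2(FPKM + 1), by color, with genes grouped by role (rows) and libraries by group and replicate (columns). ITGB1, CD63, TSPAN13 and TSPAN6 are high in every library, CD9 is lowest in IEC2, and IEC4 replicate C stands out in ITGA2, ITGA6, ITGB3 and ITGB6.

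CD9 (ENSSSCG00000022230) lies on chromosome 5 between bases 64420177 and 64459783 of Sscrofa11.1. Its FPKM was 3.49, 0.759 and 0.856 in IEC2 A, B and C, 91.0, 144 and 418 in IEC4, 40.1, 46.4 and 28.0 in IEC12, and 308, 351 and 276 in AOC. No IEC2 library overlapped any other group, every IEC12 library lay below every IEC4 library, and IEC4 C alone lay above the AOC libraries. The group means were 1.70 ± 1.55 (SD, n = 3) in IEC2, 218 ± 176 in IEC4, 38.1 ± 9.34 in IEC12 and 312 ± 37.9 in AOC. The order of the means was thus IEC2, IEC12, IEC4 and AOC, and IEC4 and AOC were not separated beyond their spread. CD9 differed by 6.18 (SE 0.532) between IEC4 and IEC2 on the log2(FPKM + 1) scale, by 3.97 between IEC12 and IEC2 and by -2.21 between IEC12 and IEC4. These values are a description with no test, because CD9 was chosen for its rise at day 4 and each comparison holds IEC2 or IEC4. Without IEC4 C, the day 4 difference from IEC2 was 5.56. AOC was not part of that choice, and CD9 was 3.02 (SE 0.488) higher in AOC than in IEC12 on the log2 scale (limma, adjusted p = 0.000226). That comparison holds neither IEC2 nor IEC4, but it was chosen with earlier results of these data known.

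**Figure D2:**
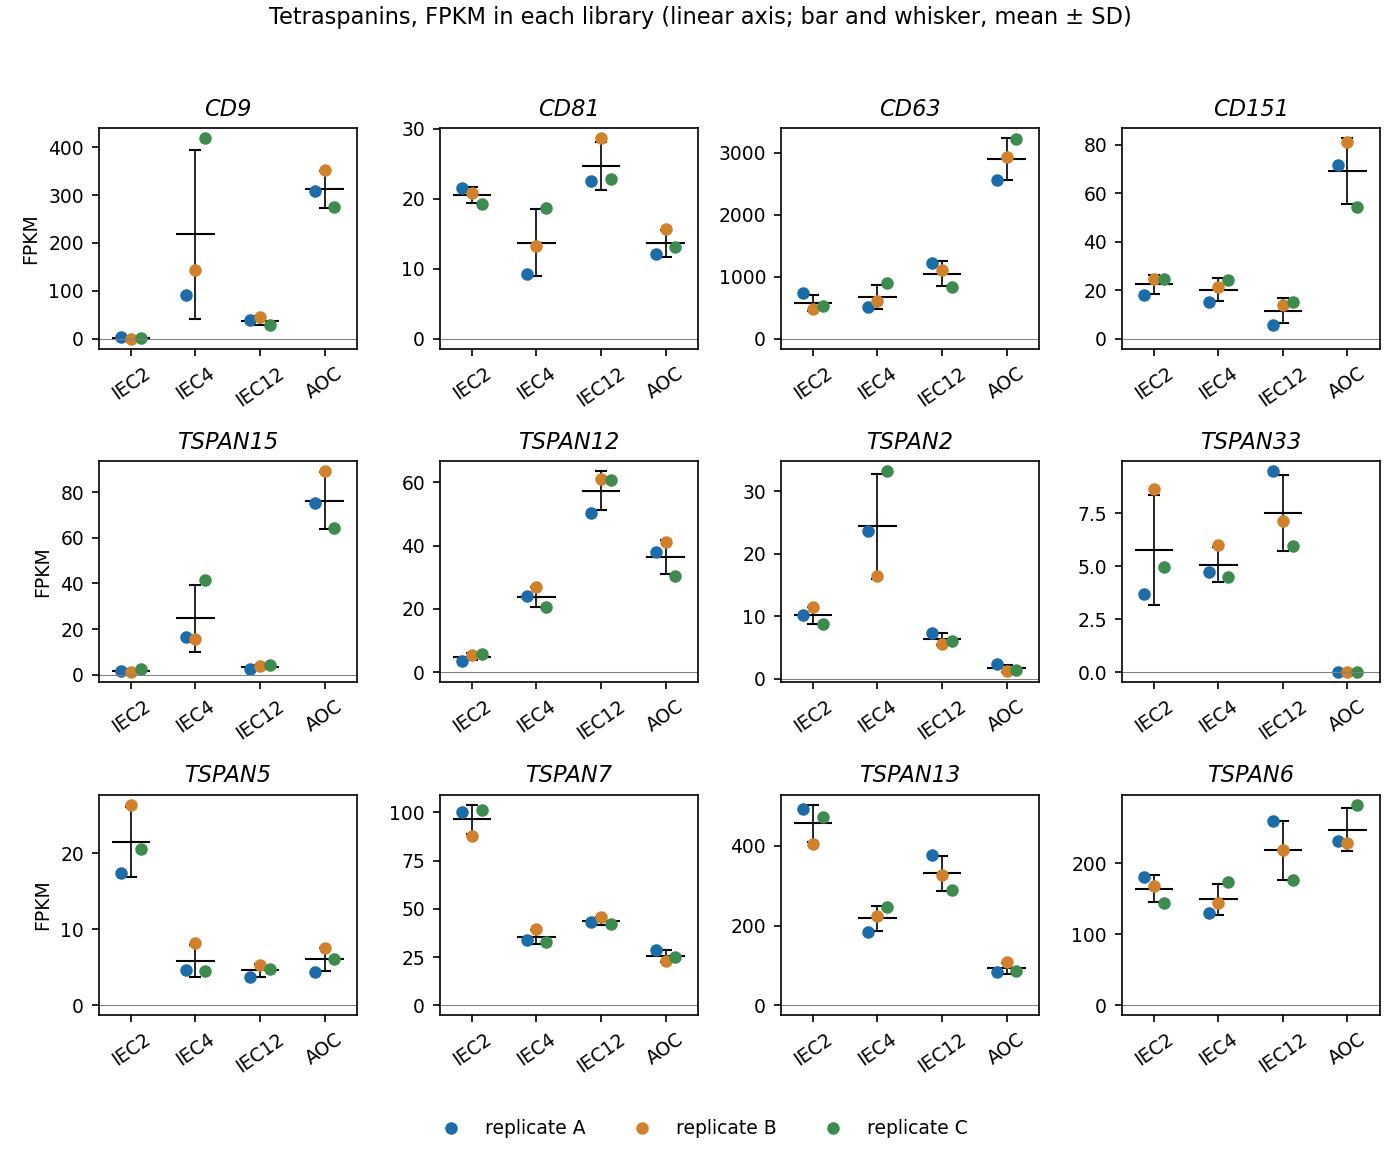
FPKM (linear axis from 0, its own scale in each panel) of 12 tetraspanins in the 3 libraries of each group, with the mean and SD. CD9 and TSPAN15 are low in IEC2, high in IEC4, lower again in IEC12 and high in AOC, TSPAN12 is highest in IEC12, TSPAN5 and TSPAN7 are highest in IEC2, and TSPAN33 is listed at 0 in AOC.

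Between day 2 and day 4, changes in both families were tested in a limma fit of the 9 IEC libraries, with a gene called when its adjusted p was under 0.05 and its log2 fold change exceeded 1 in size. Of the 48 members, 28 passed the filter of 1 FPKM in 3 libraries. Leaving CD9 aside, 7 of 27 were called higher in IEC4, where 13.5% of all 10542 genes tested were, and 3 were called lower, where 4.8% of all genes were. ITGA5, ITGA2, ITGA6, ITGB6, TSPAN15, TSPAN12 and TSPAN2 rose, and TSPAN5, TSPAN13 and TSPAN7 fell. The median log2 fold change of the 27 was -0.02 against 0.20 over all genes. ITGA8, ITGAL and ITGB6 passed the filter through 1 group only, so that a difference was built into their selection, and the counts are a description.

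Among the integrin beta chains, ITGB1, the common partner of most alpha subunits, was by far the most abundant. Its FPKM was 378, 386 and 505 in IEC2, 252, 281 and 331 in IEC4, 302, 247 and 237 in IEC12, and 293, 412 and 355 in AOC. The IEC2 libraries lay above all IEC4 and IEC12 libraries, but the log2 differences of -0.55 and -0.69 were within the 2-fold limit and ITGB1 was called in none of the comparisons. It made up 99.7% of the summed FPKM of the 8 beta genes in IEC2, 94.8% in IEC4, 99.7% in IEC12 and 97.7% in AOC.

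ITGB6, whose product pairs with the ITGAV chain in epithelia and binds latent TGF-β, was listed at 0 in all IEC2, IEC12 and AOC libraries and was 3.83, 2.17 and 27.1 FPKM in IEC4 A, B and C. It was thus detected at day 4 only. It is counted among the calls of IEC4 against IEC2 and of IEC12 against IEC4, but as it passed the filter through IEC4 alone its values are given as a description, and no fold is given against groups listed at 0. ITGB3, the beta chain of the vitronectin receptor, was 0.221, 0.931 and 13.2 FPKM in IEC4 A, B and C. It was 0.248, 0.1003 and 0 FPKM in IEC2, listed at 0 in IEC12, and 0.0911, 0.282 and 0.427 FPKM in AOC, so it passed 1 FPKM in 1 library and entered no test. Both genes were highest in IEC4 C, the library with the highest epithelial marker sum. Of the IEC libraries, IEC4 C also had the highest sums of mesoderm (11.9 FPKM), smooth muscle and fibroblast (22.7 FPKM) and leukocyte (14.2 FPKM) markers. Its pluripotent, platelet and neural marker sums were not the highest.

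ITGB5 and ITGB8, other partners of ITGAV, reached 1 FPKM in AOC alone. ITGB5 was 5.34, 6.86 and 5.36 FPKM in AOC and at most 0.896 FPKM elsewhere, and ITGB8 was 1.67, 2.44 and 1.95 FPKM in AOC and at most 0.397 FPKM elsewhere. On the log2(FPKM + 1) scale, which understates changes of low genes, AOC lay above IEC12 by 2.70 for ITGB5 and by 1.53 for ITGB8. Both genes passed the filter through AOC alone, so these differences are a description and not the result of a test.

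Among the alpha chains, ITGA5, which forms the fibronectin receptor with ITGB1, had its highest IEC level at day 4, as CD9 did. Its FPKM was 2.14, 3.33 and 2.89 in IEC2, 10.8, 9.98 and 26.6 in IEC4, 0.622, 0.996 and 1.11 in IEC12, and 15.2, 15.2 and 10.9 in AOC. The IEC12 libraries lay below all others, and the IEC2 libraries lay between those of IEC12 and IEC4. ITGA5 rose by 2.03 (SE 0.330, adjusted p = 0.00126) from IEC2 to IEC4, and its level in IEC12 was 3.01 lower than in IEC4 (log2 fold change -3.01, SE 0.330, adjusted p = 0.000154). At 3.01, just past the limit, that fall also met the limits of the study (p and adjusted p under 0.001, a log2 fold change over 3 in size), which 0.939% of all genes met in IEC12 against IEC4. It no longer met them with no filter, with only the groups compared, with median-of-ratios scaling (-2.83), or without IEC12 A (-2.90), IEC12 B or IEC4 C (-2.59), though the call at 2-fold held in each of these. ITGA5 was 2.94 (SE 0.308, adjusted p = 6.6e-06) higher in AOC than in IEC12.

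ITGA2 (collagen-binding) and ITGA6 (laminin-binding) were highest in IEC4 C. ITGA2 was 0.695, 0.712 and 2.36 FPKM in IEC2, 3.32, 2.85 and 22.8 in IEC4, 0.754, 0.454 and 0.339 in IEC12, and 2.30, 3.30 and 2.54 in AOC. ITGA6 was 0.471, 1.36 and 1.40 FPKM in IEC2, 1.98, 3.10 and 10.9 in IEC4, 1.82, 1.25 and 1.44 in IEC12, and 4.98, 9.25 and 5.74 in AOC. For neither gene did IEC2 and IEC4 overlap. Outside IEC4, ITGA2 reached 1 FPKM in IEC2 C alone of the 9 IEC libraries. It is counted among the calls, but its differences are given as a description without a test. The increases were 1.78 (SE 0.608) for ITGA2 and 1.38 (SE 0.445, limma, adjusted p = 0.0357) for ITGA6. Without IEC4 C these increases were 0.93 for ITGA2 and 0.79 (adjusted p = 0.058) for ITGA6, and neither was called. The ITGA6 call was also lost on leaving out IEC4 B or any 1 of the IEC2 libraries, and the ITGA2 call on leaving out IEC2 A or IEC2 B. ITGA2 was 2.29 lower in IEC12 than in IEC4 (log2 fold change -2.29, SE 0.608), and it stayed past the limits of the call without IEC4 C. ITGA6 did not pass the test there (-1.08, adjusted p = 0.0736).

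ITGAV, the alpha chain shared by the RGD-binding receptors of ITGB3, ITGB5, ITGB6 and ITGB8, was 12.2, 17.3 and 22.1 FPKM in IEC2, 10.5, 12.1 and 30.6 in IEC4, 13.5, 9.60 and 10.5 in IEC12, and 25.7, 37.1 and 25.4 in AOC. The 3 IEC groups overlapped and ITGAV was called in no comparison among them, with a log2 difference of -0.07 (SE 0.362) between IEC4 and IEC2. AOC lay above IEC12 by 1.31 (SE 0.343, adjusted p = 0.00626), as did ITGA6 by 1.58 (SE 0.427, adjusted p = 0.00732).

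**Figure D3:**
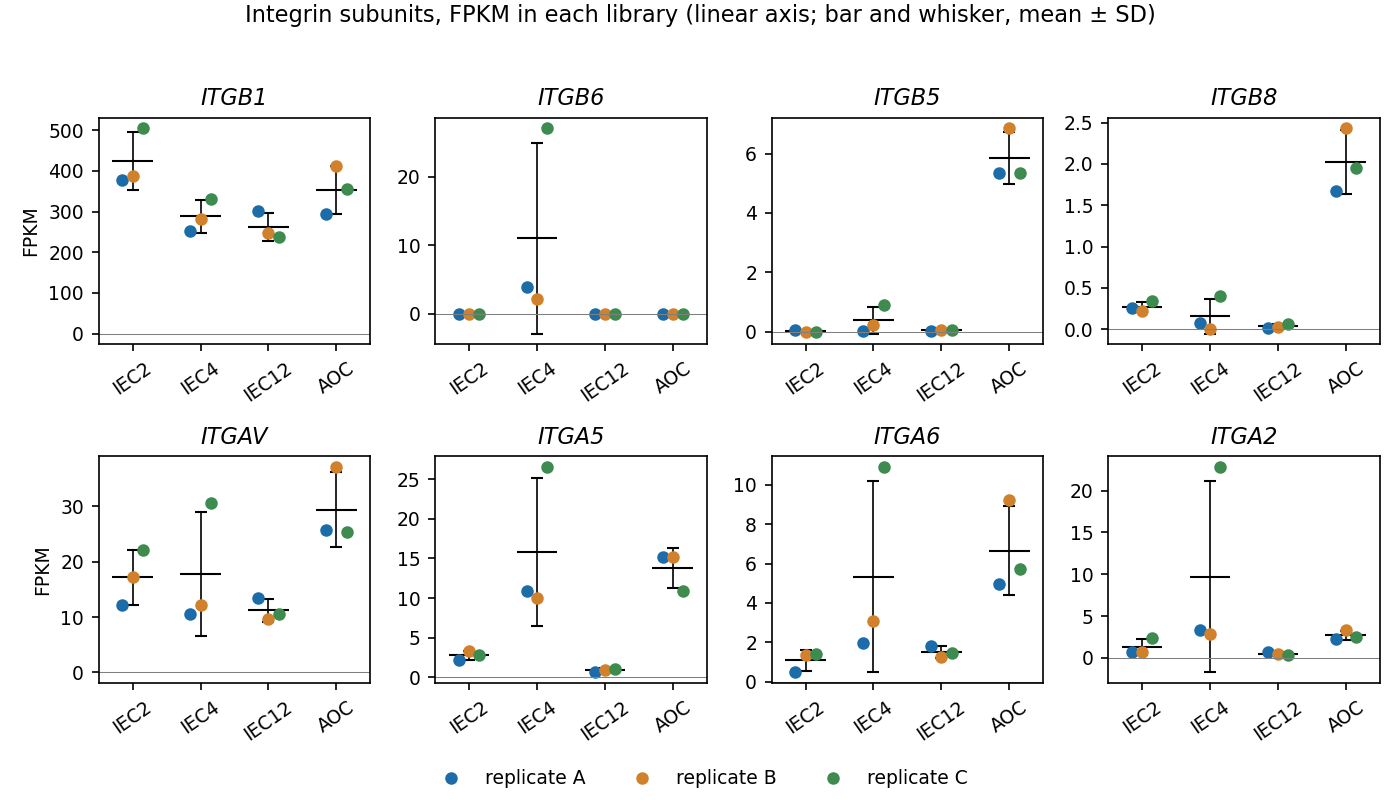
FPKM (linear axis, its own scale in each panel) of 8 integrin subunits in the 3 libraries of each group, with the mean and SD where a group is not listed at 0. ITGB1 is at 237 FPKM or more in every library, ITGB6 is detected in IEC4 only, ITGB5 and ITGB8 are highest in AOC, and IEC4 replicate C lies far above A and B for ITGB6, ITGA2, ITGA6, ITGA5 and ITGAV.

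The remaining tested alpha subunits were at 5.74 FPKM or less in every library. ITGA10, a collagen receptor of cartilage, lay between 3.12 and 5.74 FPKM in all 12 libraries, and ITGA1, another collagen receptor, between 0.999 and 3.87 FPKM, with AOC highest for both. ITGA8, a nephronectin receptor, was 1.13, 1.94 and 1.73 FPKM in IEC2, 0.736, 0.882 and 0.840 in IEC4, 0.481, 0.349 and 0.628 in IEC12, and listed at 0 in AOC, so that the groups did not overlap. ITGAL, the alpha chain of the leukocyte receptor for ICAM1, was 2.30, 1.21 and 1.11 FPKM in IEC4, above the 0.267 to 0.516 FPKM of IEC2 and the 0.127 to 0.569 FPKM of IEC12, and its partner ITGB2 stayed under 1 FPKM. The 12 leukocyte markers summed to 9.47 to 13.6 FPKM in IEC2 and 9.99 to 14.2 FPKM in IEC4. Single markers moved both ways. PTPRC and LCP1 were higher in IEC4 (PTPRC 2.14 to 3.49 FPKM against at most 0.0258 FPKM in IEC2). SPI1 and CORO1A were lower there (SPI1 1.22 to 1.79 FPKM against 5.35 to 9.16 FPKM in IEC2). The part of leukocytes in the ITGAL level was not tested. ITGAE, which pairs with ITGB7 and binds E-cadherin, lay between 1.21 and 3.07 FPKM throughout. ITGA8 and ITGAL passed the filter through 1 group only. None of ITGA10, ITGA1, ITGA8, ITGAL and ITGAE passed both limits of the call with all libraries as deposited and a pseudocount of 1. In AOC against IEC12, ITGA1 was called in 3 of 13 alternatives, with a log2 fold change of up to 1.03 on leaving out 1 replicate.

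The make-up of the alpha chains shifted at day 4. ITGAV was 52.0% ± 4.93 (SD, n = 3) of the summed alpha FPKM in IEC2, 29.9% ± 2.16 in IEC4, 49.7% ± 3.93 in IEC12 and 45.9% ± 1.98 in AOC. ITGA5 was 8.59% ± 1.32 in IEC2, 27.0% ± 1.53 in IEC4, 4.14% ± 1.44 in IEC12 and 21.8% ± 3.71 in AOC. The share of ITGA5 was alike in the 3 IEC4 libraries (28.8%, 26.4% and 25.9%), although the summed alpha level was 37.7, 37.7 and 102.6 FPKM in them. These shares are a description and were not tested.

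**Figure D4:**
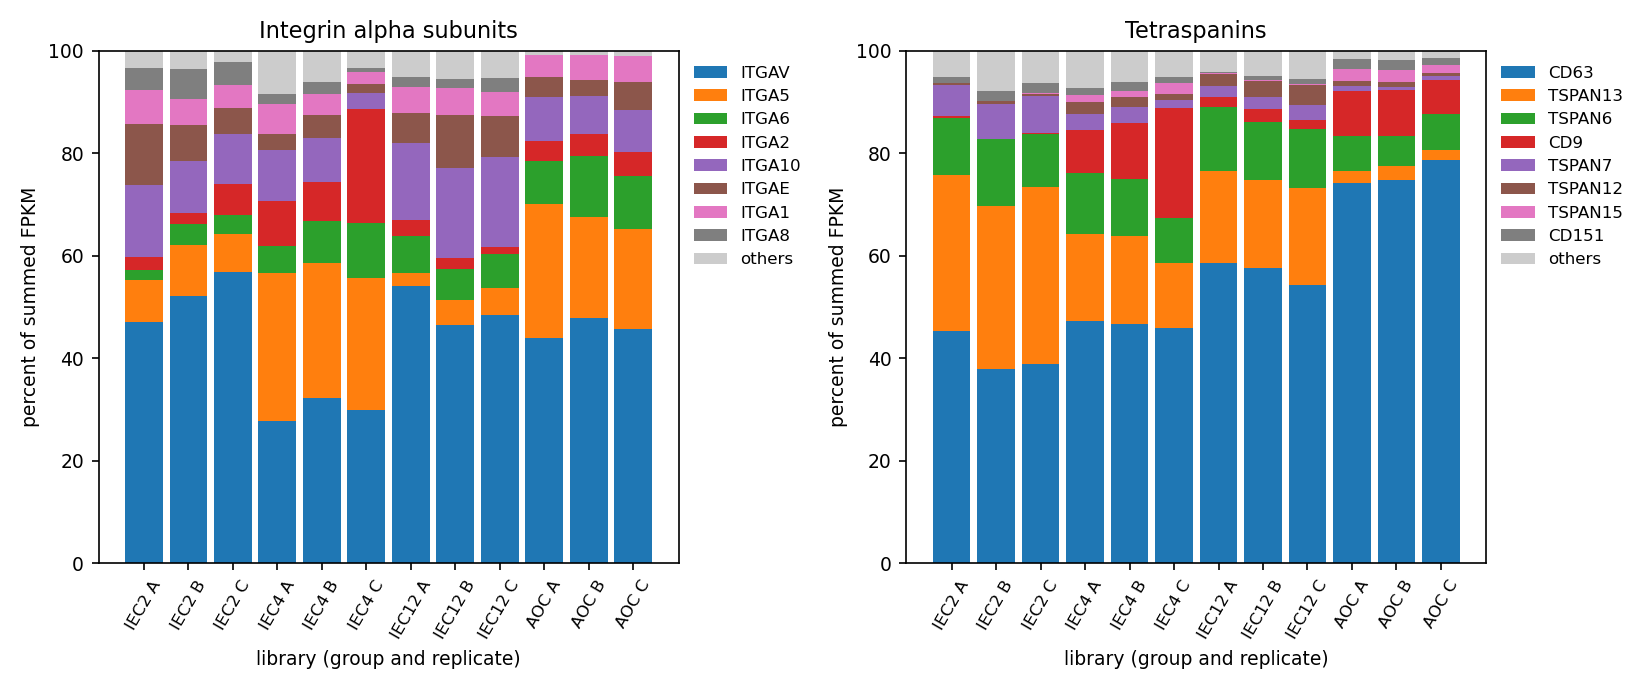
Share of each gene in the summed FPKM of the 14 integrin alpha genes (left) and of the 26 tetraspanins (right), in percent, 1 bar per library. ITGA5 takes over 25% of the alpha chains in each IEC4 library, ITGA2 takes 22.3% in IEC4 C, and CD63 takes 74.1% or more of the tetraspanins in each AOC library.

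CD63 was the most abundant tetraspanin in 12 of 12 libraries, at 731, 485 and 536 FPKM in IEC2, 513, 611 and 898 in IEC4, 1223, 1101 and 829.7 in IEC12, and 2553, 2933 and 3217 in AOC. The AOC libraries lay above all others and were called higher than IEC12 by 1.48 (SE 0.222, adjusted p = 0.000129), while no IEC comparison called CD63. It made up 40.7% of the tetraspanin FPKM in IEC2, 46.6% in IEC4, 56.8% in IEC12 and 75.9% in AOC.

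CD151, the tetraspanin most tightly bound to laminin-binding integrins, was 18.0, 24.7 and 24.9 FPKM in IEC2, 15.1, 21.3 and 24.4 in IEC4, 5.60, 14.1 and 15.2 in IEC12, and 71.7, 81.3 and 54.4 in AOC. Every AOC library lay above every other library, and the difference from IEC12 was 2.56 (SE 0.315, adjusted p = 2.54e-05). The IEC12 libraries lay below those of IEC2, but the log2 difference of -0.99 (adjusted p = 0.0364) was just inside the 2-fold limit. On chromosome 2, CD151 ends 2518 bases before TSPAN4 in the RefSeq annotation of Sscrofa11.1, and TSPAN4 was at most 0.0254 FPKM in every library.

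CD81, a close relative of CD9 that also binds integrins and immunoglobulin-family proteins, had another order than CD9. Its FPKM was 21.5, 20.8 and 19.3 in IEC2, 9.29, 13.2 and 18.7 in IEC4, 22.5, 28.6 and 22.8 in IEC12, and 12.0, 15.7 and 13.1 in AOC. Every IEC12 library lay above all others, and the differences of 0.84 (SE 0.221, adjusted p = 0.0129) from IEC4 and of -0.81 (SE 0.208, adjusted p = 0.00546) for AOC against IEC12 did not reach 2-fold. Without IEC4 C, or with median-of-ratios scaling, the IEC12 level was called higher than that of IEC4 (1.08 and 1.06).

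The TspanC8 group, 6 of whose genes were found, did not move as a block. TSPAN15, which directs ADAM10 to N-cadherin, was 1.71, 1.14 and 2.43 FPKM in IEC2, 16.6, 15.8 and 41.6 in IEC4, 2.29, 3.70 and 4.02 in IEC12, and 75.5, 89.2 and 64.5 in AOC. It rose by 3.10 (SE 0.359, adjusted p = 0.000177) at day 4. Of the 27 members tested, with CD9 left aside, it alone was past the limits of the study there, where 1.18% of all genes were. Those limits were no longer met with no filter, with median-of-ratios scaling (2.89), or without IEC4 C (2.67), IEC2 A or IEC2 B, though the call at 2-fold held in each of these. From day 4 to day 12 it fell by 2.45 (log2 fold change -2.45, SE 0.359, adjusted p = 0.000717), and it was 4.17 (SE 0.329, adjusted p = 6.34e-07) higher in AOC than in IEC12.

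TSPAN5, a TspanC8 member linked to Notch signaling, went the other way early on. It was 17.4, 26.4 and 20.7 FPKM in IEC2, 4.62, 8.26 and 4.51 in IEC4, 3.67, 5.26 and 4.80 in IEC12, and 4.44, 7.57 and 6.07 in AOC. All IEC2 libraries lay above the rest, and TSPAN5 fell by 1.75 (log2 fold change -1.75, SE 0.246, adjusted p = 0.000549) to day 4 and by 2.00 (log2 fold change -2.00, SE 0.246, adjusted p = 0.000194) to day 12. TSPAN17 rose from 1.43, 1.40 and 1.83 FPKM in IEC2 to 4.38, 6.75 and 4.40 in IEC12 (log2 fold change 1.26, SE 0.192, adjusted p = 0.000699), with 2.52, 2.71 and 2.76 FPKM in IEC4.

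TSPAN33 lay between 3.70 and 9.47 FPKM in the 9 IEC libraries and was listed at 0 in all AOC libraries, a difference that the test called (adjusted p = 7.52e-07) and for which no fold is given. TSPAN14 (1.41 to 5.40 FPKM) and TSPAN10 (0 to 1.45 FPKM) were called in no comparison. ADAM10 itself lay between 9.23 and 24.9 FPKM in all libraries and was called in none.

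TSPAN12, known as a co-receptor that helps FZD4 respond to the ligand norrin in retinal vessels, increased at each step of the induction. It was 3.53, 5.38 and 5.58 FPKM in IEC2, 24.2, 26.7 and 20.5 in IEC4, 50.4, 60.9 and 60.8 in IEC12, and 37.8, 41.0 and 30.3 in AOC. The 4 groups did not overlap. TSPAN12 rose by 2.10 (SE 0.182, adjusted p = 3.42e-05) to day 4 and by a further 1.24 (SE 0.182, adjusted p = 0.000737) to day 12, and was the only one of the 27 members called higher at day 12 than at day 4. The IEC groups of TSPAN17 and TSPAN3 also rose at both steps without overlap. Their steps were smaller (0.52 and 0.73 for TSPAN17, 0.17 and 0.44 for TSPAN3) and were not called. FZD4 was 6.94, 12.0 and 12.1 FPKM in IEC2, 11.8, 13.8 and 12.7 in IEC4, 38.6, 32.9 and 31.5 in IEC12 and 18.7, 19.8 and 17.8 in AOC, an increase of 1.36 (SE 0.203, adjusted p = 0.000794) from IEC4 to IEC12. NDP, the gene of norrin, was listed at 0 in all libraries but IEC2 C (0.151 FPKM).

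Among the other tetraspanins, TSPAN2, known from myelin-forming and smooth muscle cells, was 10.1, 11.5 and 8.83 FPKM in IEC2, 23.7, 16.4 and 33.2 in IEC4, 7.39, 5.62 and 6.04 in IEC12, and 2.32, 1.20 and 1.44 in AOC. It rose by 1.14 (SE 0.238, adjusted p = 0.0047) to day 4, a call lost without IEC4 C (0.90) and with median-of-ratios scaling (0.90). It fell by 1.74 (log2 fold change -1.74, SE 0.238, adjusted p = 0.000491) from day 4 to day 12 and was 1.49 lower in AOC than in IEC12 (log2 fold change -1.49, SE 0.241, adjusted p = 0.000229). TSPAN18, which acts on calcium channels of endothelial cells, was 2.47, 2.41 and 2.11 FPKM in IEC4, above every other library, and its called fall to day 12 (log2 fold change -1.03, SE 0.212, adjusted p = 0.00407) was not called without IEC12 A (-0.91), without IEC4 A (-0.997) or with median-of-ratios scaling (-0.90).

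TSPAN13 and TSPAN7 were highest at day 2. TSPAN13 was 493, 405 and 474 FPKM in IEC2, 185, 224 and 247 in IEC4, 378, 327 and 289 in IEC12, and 83.9, 109 and 85.1 in AOC, so that the 4 groups did not overlap. It fell by 1.07 (log2 fold change -1.07, SE 0.151, adjusted p = 0.000574) to day 4, not called without IEC4 A (-0.95), and was 1.83 lower in AOC than in IEC12 (log2 fold change -1.83, SE 0.151, adjusted p = 8.96e-07). TSPAN7, which traffics receptors in neurons, was 100.5, 87.6 and 101 FPKM in IEC2, 33.9, 39.5 and 32.5 in IEC4, 43.1, 46.0 and 42.3 in IEC12, and 28.8, 22.9 and 24.8 in AOC. It fell by 1.43 (log2 fold change -1.43, SE 0.124, adjusted p = 3.4e-05) to day 4 and stood 1.12 lower in IEC12 than in IEC2 (log2 fold change -1.12, SE 0.124, adjusted p = 0.000103). TSPAN6 (130.2 to 283 FPKM) and TSPAN3 (22.2 to 36.8 FPKM) were high in every library and were called in no comparison. TSPAN9, a tetraspanin of platelets, was 1.73, 1.96 and 1.43 FPKM in AOC and at most 0.722 FPKM elsewhere, and since it passed the filter through AOC alone no test is given.

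From day 4 to day 12, 1 of 27 members was called higher, where 6.25% of all genes were, and 6 were called lower, where 16.4% of all genes were. ITGA5, ITGA2, ITGB6, TSPAN15, TSPAN18 and TSPAN2 fell. Of these 6, ITGA5, ITGA2, ITGB6, TSPAN15 and TSPAN2 had also been called higher at day 4 than at day 2, and the IEC4 libraries are part of both comparisons. The median log2 fold change was -0.30 against -0.15 over all genes. ITGA8, ITGAL and ITGB6 passed the filter through 1 group only, and ITGA2 reached 1 FPKM outside IEC4 in IEC2 C alone, so the counts are a description.

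Day 12 against day 2 gave 2 members called higher (TSPAN17 and TSPAN12), where 11.1% of all genes were, and 2 called lower (TSPAN5 and TSPAN7), where 10.3% of all genes were. TSPAN12, at 3.34 (SE 0.182, adjusted p = 2.31e-06), was past the limits of the study, as were 1.22% of all genes. No integrin of the 11 tested was called by limma. Of the 11, ITGB6 was listed at 0 in all IEC2 and IEC12 libraries and could not be called. ITGAL passed the filter through IEC4 alone and was at most 0.569 FPKM in both groups. The counts are a description. ITGA5 (log2 fold change -0.98, adjusted p = 0.036), ITGA8 (-0.80, adjusted p = 0.00525) and ITGB1 (-0.69, adjusted p = 0.00741) passed the limit on adjusted p, and were the 3 with an unadjusted p under 0.05, but were within 2-fold, and ITGA8 had passed the filter through IEC2 alone. ITGA5 was called in 5 of 13 alternatives. The member count was 8 without IEC12 C and 7 without IEC2 A, against 4 with all libraries. The median was -0.35 against 0.03 over all genes.

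AOC against IEC12 was tested in a fit of all 12 libraries, in which 31 members and 11053 genes passed the filter. Of the 31, 10 were called higher in AOC, where 13.9% of all genes were, and 3 were called lower, where 18.6% of all genes were. The 10 were ITGA5, ITGAV, ITGA6, ITGB5, ITGB8, CD151, CD63, CD9, TSPAN15 and TSPAN9, and the 3 were TSPAN33, TSPAN13 and TSPAN2. TSPAN15, CD9 and TSPAN33 were past the limits of the study, as were 4.41% of all genes. The median log2 fold change of the 31 was 0.32 against -0.21 over all genes. ITGB5, ITGB8 and TSPAN9 passed the filter through AOC alone, so that a difference was built into their selection. ITGA8 passed it through IEC2 alone, and ITGAL and ITGB6 through IEC4 alone, which are groups outside this comparison. ITGB6 was listed at 0 in all AOC and IEC12 libraries and could not be called. The counts above are no more than a description.

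**Figure D5:**
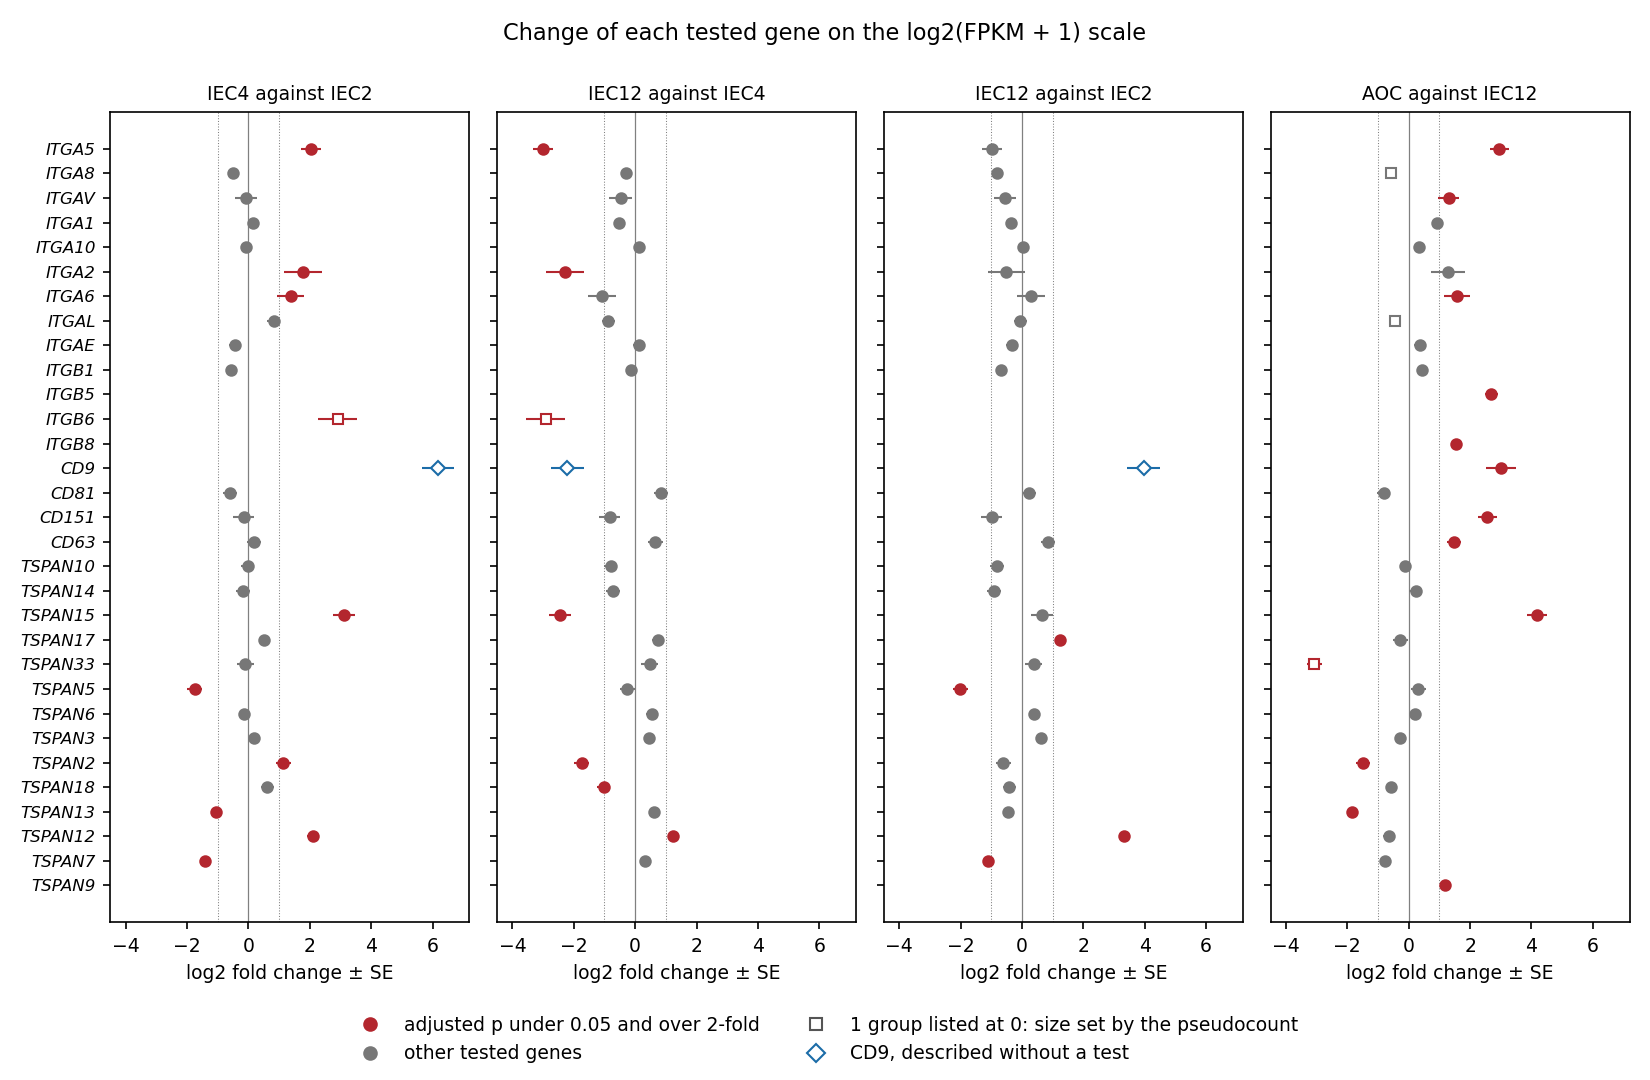
Log2 fold change on the log2(FPKM + 1) scale with its standard error (horizontal axis) of each tested member in the 4 comparisons, with dotted lines at the 2-fold limit. TSPAN15, ITGA5 and CD9 lie to the right in IEC4 against IEC2 and in AOC against IEC12 and to the left in IEC12 against IEC4, TSPAN12 lies to the right in all 3 comparisons of the IEC groups, and squares mark values whose size depends on the pseudocount because 1 group is listed at 0.

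IEC4 replicate C differed from A and B in these genes. Of the 26 members at 1 FPKM or more in every IEC4 library, 7 (26.9%) were more than 2-fold above the mean of A and B in C, against 382 of 9287 genes (4.11%). They were ITGB6 (9.03-fold), ITGA2 (7.41-fold), ITGA6 (4.30-fold), CD9 (3.56-fold), ITGAV (2.71-fold), TSPAN15 (2.57-fold) and ITGA5 (2.55-fold). The epithelial genes CLDN4, CDH1 and KRT8 were 8.20-fold, 6.09-fold and 2.03-fold above the mean of A and B in the same library. The mesoderm, smooth muscle and fibroblast, and leukocyte marker sums were also higher in C than in A and B. Whether epithelial or other cells account for the member levels was not tested. Without IEC4 C, IEC4 against IEC2 gave 6 called members in place of 10 (3 higher and 3 lower), and ITGB6 no longer passed the filter.

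Partners and ligands of both families were taken from lists of 24 tetraspanin partners (20 found), 46 genes of the integrin adhesion machinery (all found) and 32 integrin ligands (27 found), which are separate from the members. Between IEC2 and IEC4, 10 of 17 ligands tested (58.8%, against 13.5% of all genes) were called higher and none lower, with a median log2 fold change of 1.86 against 0.20 over all genes. Of the 17, 6 passed the filter through 1 group only (CDH1, COL1A1, EDIL3, LAMA3, LAMA5 and VTN), so the count is a description. E-cadherin (CDH1), the ligand of the ITGAE receptor, was 3.66 higher in IEC4, the group through which it passed the filter, and LAMB1, a laminin chain, rose by 3.52 (SE 0.438, adjusted p = 0.000274). Of 11 partners, 3 (27.3%) were called higher and none lower, led by CLDN1, a tight junction protein bound by CD9 and CD81 (3.62, SE 0.477, adjusted p = 0.00038). Of 35 machinery genes, 5 (14.3%) were called higher and 2 (5.71%) lower, close to the 13.5% and 4.8% of all genes, the latter being the adaptor NEDD9 (-1.18) and the kinase FYN (-1.05). Among these machinery genes, KANK2 and TLN2 passed the filter through IEC4 alone. The 3 lists held 20 calls with all libraries and 13 without IEC4 C, in which FN1 (116 FPKM against 13.1 and 10.4 in A and B), SPP1 (133 against 8.37 and 8.45) and THBS1 (70.1 against 7.45 and 6.67) were far higher.

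From IEC4 to IEC12, 13 of 17 ligands (76.5%) and 18 of 35 machinery genes (51.4%) were called lower, where 16.4% of all genes were. None was called higher, where 6.25% of all genes were, and the medians were -2.04 and -1.05 against -0.15 over all genes. CDH1, COL1A1, EDIL3, LAMA3, LAMA5, KANK2 and TLN2 passed the filter through IEC4 alone, and VTN through IEC12 alone. For IEC12 against IEC4 a difference was thus built into their selection, and the counts among the IEC groups are a description. THBS1, a matrix glycoprotein, showed a log2 difference of -3.86, given without a test because outside IEC4 it reached 1 FPKM in IEC2 A alone of the 9 libraries. The actin cross-linker ACTN1 fell, with a log2 fold change of -3.37 (SE 0.480, adjusted p = 0.000617). It was 32.7, 33.1 and 56.3 FPKM in IEC4 A, B and C and 0.957, 3.10 and 6.40 FPKM in IEC12 A, B and C. The IEC12 libraries thus differed widely among themselves. ZYX and MFGE8 had the same rising order from IEC12 A to C, and FZD4 and LAMA4 the reverse order. Among 11 partners, FZD4 was called higher (9.09%, against 6.25% of all genes) and 3 were called lower (27.3%, against 16.4%). Of these 3, HBEGF, a growth factor that binds CD9, changed most (-3.74, SE 0.635, adjusted p = 0.0015). Against IEC2, IEC12 had 7 of 35 machinery genes lower (20%, against 10.3% of all genes) and none higher (against 11.1%), the largest change being in the focal adhesion protein ZYX (-2.94, SE 0.329, adjusted p = 0.000111). Of 17 ligands, 2 were called higher in IEC12 than in IEC2 (LAMA4, 1.04, and VTN, 1.18, which passed the filter through IEC12 alone) and 2 were lower (11.8% each way), led by MFGE8 (-2.86, adjusted p = 0.000954). Among the 11 partners FZD4 was called higher (1.67) and 2 were called lower, led by HBEGF (-2.83). Those partner shares were 9.09% and 18.2%, against 11.1% and 10.3% of all genes.

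In AOC, the endothelial line, 13 of 22 ligands (59.1%) and 16 of 36 machinery genes (44.4%) were called higher than in IEC12, where 13.9% of all genes were. The lower calls were 1 of each (4.55% and 2.78%), where 18.6% of all genes were called lower. Medians were 1.43 and 0.83 against -0.21 over all genes. COL1A2 (ligand) and LIMS2 (machinery) passed the filter through AOC alone and VTN (ligand) through IEC12 alone, so a difference was built into their selection. The ligands CDH1 and LAMA3 and the machinery gene TLN2 passed it through IEC4 alone, a group outside this comparison. These counts are a description. THBS1 (7.88, SE 0.641, adjusted p = 8.11e-07), SPP1 (5.62, SE 0.782, adjusted p = 6.86e-05) and VCAM1, the counter-receptor of ITGA4 (5.37), differed most, and VCAM1 reached 1 FPKM outside AOC in IEC4 C alone, so no test is given for it. ITGA4 itself was at most 0.00612 FPKM in AOC. The lower machinery gene was NEDD9 (-1.22, adjusted p = 2.28e-05) and the lower ligand was VTN, which was 1.24, 1.26 and 1.40 FPKM in IEC12 and listed at 0 in AOC. Among 11 partners, 1 was called higher and 1 lower (9.09% each, against 13.9% and 18.6% of all genes). HBEGF was higher (2.45, adjusted p = 0.00332). PTGFRN, an immunoglobulin-family partner of CD9 and CD81, was lower, at 0.849, 0.823 and 0.830 FPKM in AOC against 5.78, 8.28 and 9.76 in IEC12 (-2.26, SE 0.235, adjusted p = 6.3e-06). CD9 and PTGFRN thus differed in opposite directions between AOC and IEC12.

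Of the tetraspanins that carry other symbols, PRPH2 and ROM1 stayed under 1 FPKM in all libraries and UPK1A, a uroplakin, was at most 2.21 FPKM. UPK1B, another uroplakin of urinary epithelium, was listed at 0 in IEC2 and was 2.09, 1.63 and 8.66 FPKM in IEC4, 0.582, 0.252 and 0.466 in IEC12, and 7.11, 7.74 and 5.63 in AOC. The 3 IEC4 libraries of UPK1B lay above those of IEC2 and IEC12.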

How the data were processed

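RNA of 12 libraries was amplified by Smart-Seq2 and sequenced on an Illumina instrument, and the authors analyzed the reads with Galaxy. The deposited tables hold 1 FPKM value per Ensembl gene and library. The submitters' processing notes name Bowtie2 2.2.3, TopHat2 2.0.12, Cufflinks 2.2.1 and the build susScr11, and the annotation and any scaling between libraries are not given in the sources used here. The iPS and sorted libraries are not analysed here.

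Groups and replicate letters came from the sample titles. limma 3.58.1 (R 4.3.3) was run on log2(FPKM + 1) with the variance tied to expression, for genes with at least 1 FPKM in at least 3 libraries of the fit. Comparisons among the IEC groups used the 9 IEC libraries (10542 genes) and AOC against IEC12 used all 12 (11053 genes). p-values were two-sided and adjusted by Benjamini-Hochberg over all genes of the fit. The procedure was tested on simulated data. Members, lists and comparisons were chosen with earlier results of these data known. CD9, CD81, CD63, CD151, CD82, ITGB1, ITGB3, ITGB5, ITGAV, ITGA5 and ITGA6 were given by library, as were up to 8 called members per direction and comparison, and the others by ranges. Up to 3 called genes per direction and comparison were named for the partner, machinery and ligand lists, and the other genes given were chosen after their values were seen.

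All 48 members had a RefSeq position on Sscrofa11.1, matched by symbol. Since an FPKM of 0 can be a failed estimate, a gene at 0 is described as listed at 0 and not as absent. The number of reads is unknown and no counting interval is given. Relative depth, estimated from ratios of low values of 1844 genes, ran from 0.668 (IEC12 A) to 1.23 (IEC4 A). Alternatives were a pseudocount of 0.1, no filter, only the groups compared, the replicate letter as a block, 2 other scalings, a variance not tied to expression, no fold limit, and leaving out each replicate.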

Additional observations from a re-analysis of the deposited data

How the results depend on the processing

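Of 716 alternatives for single genes, 671 kept their direction and their side of the limits, 17 lost a call, 19 gained one, 8 changed sign, and 1 value moved (CD9 in IEC12 against IEC2, 4.71 with a pseudocount of 0.1). The 8 were called under neither setting. In IEC4 against IEC2, CD151 was 0.033 without IEC4 A (-0.30 to 0.033 on leaving out 1 replicate), CD63 was -0.062 with median-of-ratios scaling and -0.038 without IEC4 C (-0.038 to 0.36), and ITGAV was 0.20 without IEC4 A, 0.11 without IEC4 B and 0.12 without IEC2 C (-0.53 to 0.20). In IEC12 against IEC4, ITGB1 was 0.10 with median-of-ratios scaling, and in IEC12 against IEC2, CD81 was -0.027 with equal totals. For members changed at 2-fold, IEC4 against IEC2 had 10 calls, 6 to 9 on leaving out 1 replicate and 6 without IEC4 C. IEC12 against IEC4 had 7, 17 with no fold limit and 6 to 8 on leaving out 1 replicate. IEC12 against IEC2 had 4, 9 with a pseudocount of 0.1, 7 with equal totals, 13 with no fold limit and 4 to 8 on leaving out 1 replicate, the highest being 8 without IEC12 C and 7 without IEC2 A. AOC against IEC12 had 13, 21 with no fold limit and 10 to 13 on leaving out 1 replicate. At the limits of the study, the 1 call of IEC4 against IEC2 became 2 with a pseudocount of 0.1 and 0 with no filter, with median-of-ratios scaling, or without IEC4 C, IEC2 A or IEC2 B (range 0 to 1). The 1 call of IEC12 against IEC4 became 2 with a pseudocount of 0.1 and 0 with no filter, with only the groups compared, with median-of-ratios scaling, or without IEC12 A, IEC12 B or IEC4 C (range 0 to 1). The 3 calls of AOC against IEC12 became 6 with a pseudocount of 0.1, 1 with equal totals and 2 to 4 on leaving out 1 replicate, and the 1 of IEC12 against IEC2 was 1 in each leave-one-out fit. The 20 list genes of IEC4 against IEC2 became 13 without IEC4 C (13 to 20), the 35 of IEC12 against IEC4 ran from 26 to 35, the 14 of IEC12 against IEC2 were 22 with a pseudocount of 0.1, 26 with no fold limit and 11 to 17 on leaving out 1 replicate, and the 33 of AOC against IEC12 ran from 29 to 34. Beyond what each setting's own construction gives, the cause of these shifts was not tested. ITGB6 could not be tested without an IEC4 library, since it then failed the filter.

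Scaling moved the median of all genes. With the libraries as deposited, with median-of-ratios scaling and with equal totals, the median log2 fold change was 0.20, -0.01 and 0.14 in IEC4 against IEC2, -0.15, 0.04 and -0.32 in IEC12 against IEC4, 0.03, 0.02 and -0.18 in IEC12 against IEC2, and -0.21, -0.01 and -0.25 in AOC against IEC12. The share of all calls that were higher went from 73.8% to 56.3% and 69.3%, from 27.6% to 43.6% and 17.3%, from 51.7% to 50.1% and 33.5%, and from 42.8% to 55.0% and 40.6%.

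Whether the replicate letters pair the samples is not stated in the sources used here, and correlations over 3 libraries per group cannot settle it. Correlations of the deviations of same-letter libraries were -0.02, 0.06 and -0.08 in IEC4 against IEC2, -0.10, 0.02 and -0.18 in IEC12 against IEC4, 0.25, 0.02 and 0.20 in IEC12 against IEC2, and -0.37, 0.07 and -0.51 in AOC against IEC12, and 1, 0, 4 and 0 of 6 libraries correlated best with their own letter. With the replicate block, 10, 7, 4 and 13 members were called in these comparisons, the same counts as without it, and 23, 35, 14 and 33 list genes. Depth limits what is said of genes under 1 FPKM, which were not called absent.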
